A study of Danio rerio with 12 samples.

Results

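The change between 7 and 28 days post fertilization (dpf) in the eyes of mmachc heterozygous zebrafish was described across 14002 genes. Whole eyes were pooled, and their total RNA was measured on Affymetrix expression arrays. The comparison rests on 6 of the 12 arrays of the study, 3 pools of eyes at 28 dpf and 3 at 7 dpf, chosen by the genotype and age in their titles. Each difference is the mean log2 level at 28 dpf minus that at 7 dpf. The other 6 arrays hold eyes of mmachc mutants, which the titles call homozygous, with 3 pools at each of the same ages. They shared the estimate of the spread and served for a single comparison at the end. Every heterozygous pool carried a mutant copy of mmachc, which encodes a protein that processes cobalamin (vitamin B12) inside the cell, and no wild type group was analysed here. Strain, sex, feeding, the number of fish in a pool and whether pools came from separate clutches are not given here. The p-values therefore cover the spread between pools and nothing wider.

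At the earlier age the zebrafish larva already hunts by sight, largely with cones, while rods, the crystalline lens and the coats of the eye are still being built. Cones and rods turn light into a fall of cyclic GMP through an opsin, a transducin, a phosphodiesterase and a cation channel. The lens is packed with crystallins, and the retina and lens of fish grow through life from progenitors at their margins.

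The arrays held the tissues that a whole eye should hold. The rod transducin gnat1 measured 12.304, 12.41 and 12.47 at 28 dpf, against 11.52, 11.45 and 11.503 at 7 dpf (log2 intensity), the lens channel mipa averaged 12.51 at 28 dpf and 12.24 at 7 dpf, and the corneal proteoglycan kera averaged 11.47 at 28 dpf and 11.17 at 7 dpf. The digestive enzyme genes prss1 and cela1.1 lay at or below 4.65 on every heterozygous array. The 33rd percentile of named probe sets was 6.14 to 6.26, so these 2 pancreatic markers were near the bottom of the range. Of 35 liver, gut and pancreas genes on the array, 4 were bright enough to be tested. Of these, 2 rose and 2 did neither, with ambp at 1.46 (log2 difference, 28 minus 7 dpf). Any share of these tissues in the pools was not tested. Arrays of the same age correlated over genes at 0.994 to 0.997, and arrays of different ages at 0.974 to 0.976. For mmachc itself the probe set names a second gene, hspa8, so it gives no level of mmachc and no check of the genotype. In a whole eye, a smaller number of cells of a type and less RNA per cell cannot be told apart.

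At 28 dpf against 7 dpf, 2927 genes rose (20.9% of those tested) and 3094 fell (22.1%), at an adjusted p under 0.05 in limma's test over all 14002 genes. Most differences were small. Only 265 genes rose at least 2-fold (1.89%) and 117 fell at least 2-fold (0.836%), and 48 rose and 14 fell at least 4-fold. All 382 genes past 2-fold had 3 arrays of one age above all 3 of the other, which held for 7877 genes in all (56.3%). The median difference over all genes was -0.02 on the log2 scale. A gene was tested where it lay above the 33rd percentile on at least 3 of the 12 arrays, so a gene dim at one age could enter through the other, and counts over tested members leave out genes dim throughout. Background signal can understate the fold of a dim probe set, and 94 of the 265 rises lay below the 33rd percentile at 7 dpf and 32 of the 117 falls at 28 dpf, so the sizes of those changes are inexact.

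**Figure D1:**
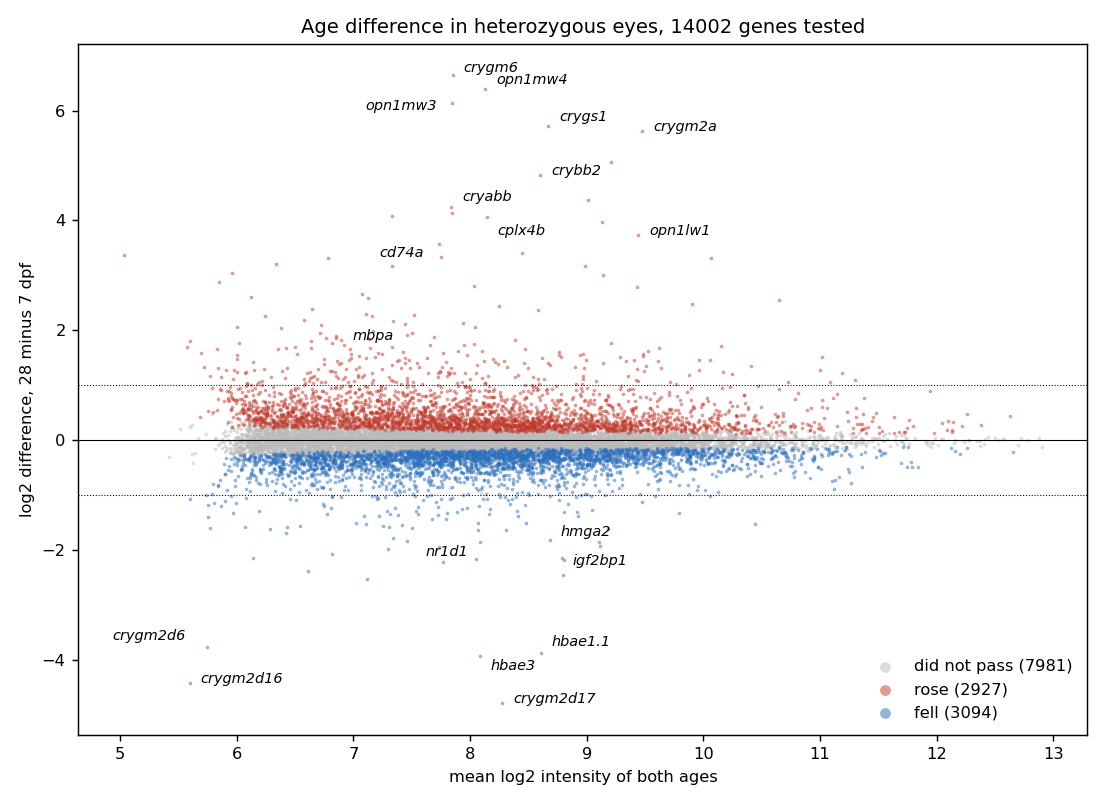
Each point is a gene, with its mean log2 intensity over both ages on the x axis and its log2 difference, 28 minus 7 dpf, in heterozygous eyes on the y axis. Red points rose (2927), blue points fell (3094) and grey points did not pass the test (7981), and the dotted lines mark a 2-fold change. With clone names passed over, crystallins and cone opsins lead the rises, and gamma M crystallins and embryonic globins lead the falls.

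The largest rises were mostly those of crystallins and cone opsins. The lists of largest rises and falls held only genes with non-overlapping arrays. They passed over clone names, 2 among the rises and 6 among the falls. Of the 15 largest rises so listed, 9 were crystallins and 3 were cone opsins. The others were cplx4b, a complexin of photoreceptor and bipolar cell synapses, and gatd3l and jac9, for which no role in the eye is given here. Their differences ran from 3.38 for crygm7 to 6.64 for crygm6, and 11 of the 15 were below the 33rd percentile at 7 dpf. The 15 largest falls so listed ran from -1.81 for hmga2 to -4.79 for crygm2d17 and were more mixed. They held 4 gamma M crystallins, 2 embryonic globins, the clock genes nr1d1 and cry-dash, and igf2bp1 and hmga2, which mark immature, growing tissue. They also held cpt1ab of fatty acid oxidation, the cyclase activator guca1g, the keratin cyt1l, and rdh20 and soul5. At 28 dpf, 6 of them lay below the 33rd percentile.

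Among the cone opsins, some green and red members rose steeply while ultraviolet and blue opsins were bright at both ages. The green opsin opn1mw4 measured 11.39, 11.38 and 11.21 at 28 dpf, against 5.04, 4.62 and 5.16 at 7 dpf, and opn1mw3 measured 10.89, 11.05 and 10.82 at 28 dpf, against 4.55, 5.16 and 4.61 at 7 dpf. Both were dim at 7 dpf and bright at 28 dpf, with no overlap, which was a condition for the list of largest rises. Their differences were 6.39 ± 0.15 (SE; adjusted p = 2.18e-14) and 6.14 ± 0.14 (SE; adjusted p = 8.94e-15). The red opsin opn1lw1 measured 11.36, 11.29 and 11.28 at 28 dpf, against 7.56, 7.74 and 7.42 at 7 dpf, a difference of 3.74 ± 0.07 (SE; adjusted p = 9.38e-16). The green opsin opn1mw1 rose by less. It measured 10.66, 9.78 and 10.303 at 28 dpf, against 9.101, 9.31 and 9.15 at 7 dpf, with a difference of 1.06 ± 0.18 (SE; adjusted p = 0.000223).

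The other opsins moved little. The arrays reached 13.2 at most, so the bright opn1sw1 and opn1sw2 had little room above them. The second red opsin, opn1lw2, averaged 11.05 at 28 dpf and 11.24 at 7 dpf and fell by 0.19 (adjusted p = 0.00291). The ultraviolet opsin opn1sw1 averaged 12.55 at 28 dpf and 12.76 at 7 dpf and fell by 0.21 (adjusted p = 0.000459). The blue opsin opn1sw2 averaged 12.22 at 28 dpf and 12.25 at 7 dpf, a difference of -0.04 that did not pass (adjusted p = 0.495). In all, 4 of 7 cone opsins rose and 2 fell, against 20.9% and 22.1% of all genes. The opsin genes of each colour are close copies of each other, so probes may take up signal from a neighbour, and the split between copies is uncertain. Rhodopsin is not analysed here, while the related rhol rose by 0.88. Of the 22 non-visual opsins tested, 3 rose (13.6%) and 6 fell (27.3%, near the share of all genes), with rgra, opn3 and opn8b at -0.66 each.

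**Figure D2:**
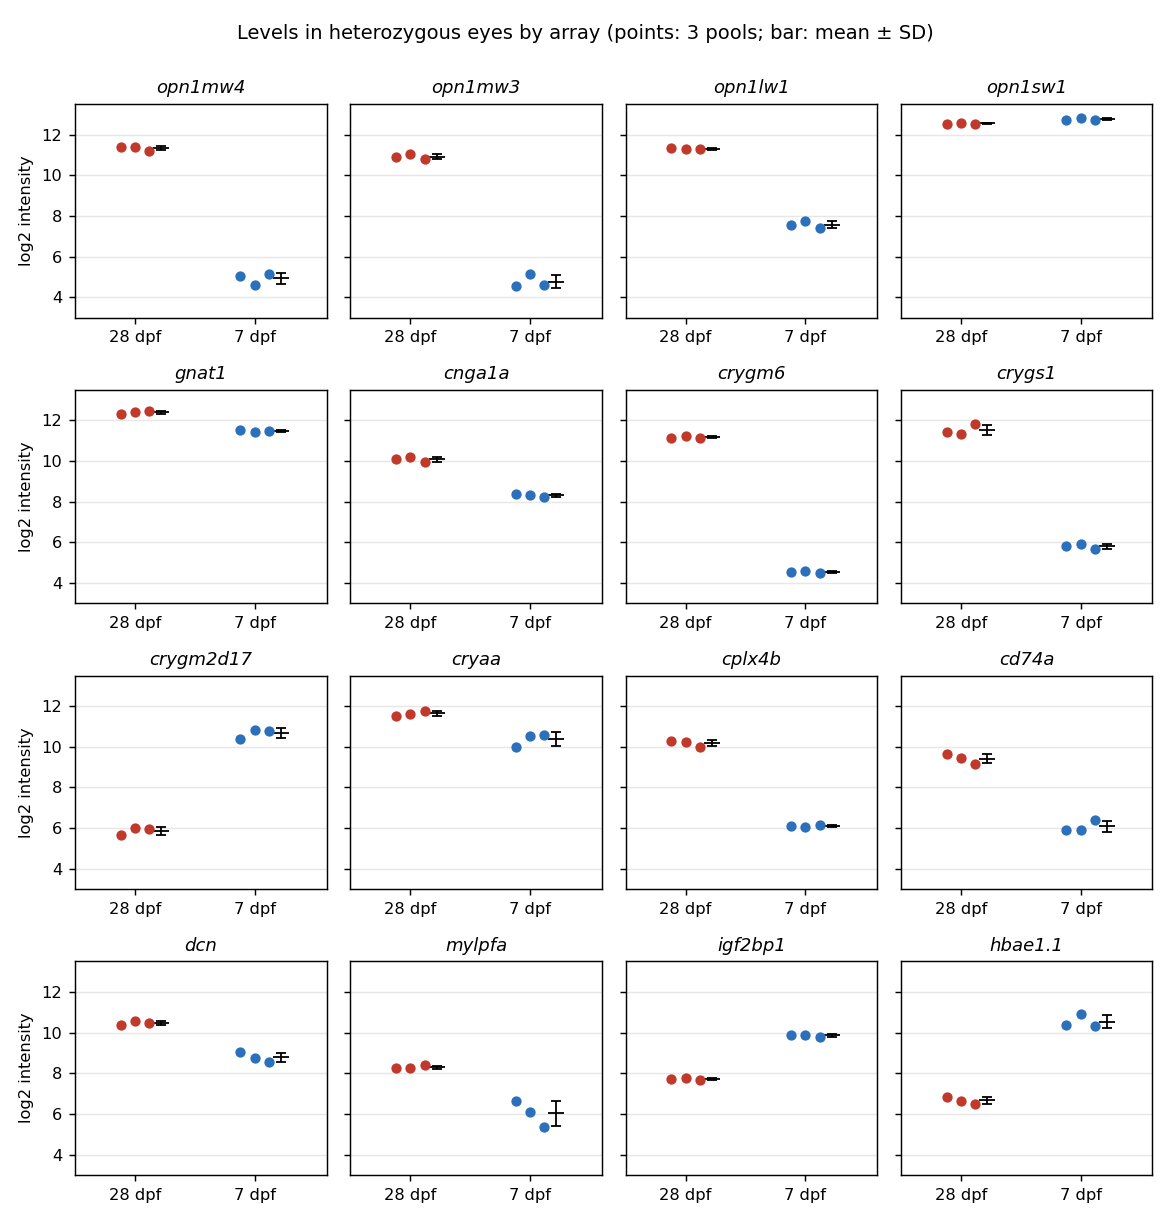
Log2 intensity of 16 genes named in the text on the 3 arrays of heterozygous eyes at 28 dpf (red) and the 3 at 7 dpf (blue), with the mean ± SD beside the points. The panels share a y axis. In the panel of opn1sw1 the points of the ages lie 0.21 apart, and in those of opn1mw4 and crygm6 over 6 log2 units.

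The rod pathway rose almost as a whole. Of 17 rod phototransduction genes tested, 15 rose (against 20.9% of all genes) and 1 fell, with a median difference of 0.77 beside -0.02 for all genes. The channel subunit cnga1a, through which the rod's light-sensitive current flows, measured 10.12, 10.19 and 9.96 at 28 dpf, against 8.37, 8.36 and 8.23 at 7 dpf, a difference of 1.77 ± 0.09 (SE; adjusted p = 2.28e-10). The phosphodiesterase subunit pde6b measured 10.7, 10.68 and 10.703 at 28 dpf, against 9.22, 9.19 and 9.27 at 7 dpf, or 2.76-fold higher. Neither gene's arrays overlapped between ages. The channel's second copy cnga1b (1.44), the exchanger slc24a1 (1.55), the cyclase activator guca1b (1.62) and the phosphodiesterase subunit pde6a (1.27) rose as well, in log2 units. The transducin gnat1 was already bright at 7 dpf and rose by 0.90. The G protein subunits gnb1a and gnb1b, which other cells use too, rose by 0.44 and 0.47.

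Cone phototransduction genes went both ways. Of 28 tested, 7 rose and 11 fell, and the median was -0.04. The photoreceptor guanylate cyclases gucy2f and gc2, which rebuild cyclic GMP after light, rose by 1.45 and 1.39, and the shut-off genes rgs9bp and rgs9b rose by 1.07 and 1.04. In the opposite direction, guca1g, which encodes a cyclase activator, measured 6.45, 6.197 and 6.27 at 28 dpf, against 8.297, 8.34 and 8.21 at 7 dpf and had a difference of -1.97 ± 0.10 (SE; adjusted p = 2.38e-10). The recoverin gene rcvrn3, which encodes a calcium sensor, fell by 1.53. The 3 arrays at 28 dpf lay below all arrays at 7 dpf for both, for guca1g a condition for the list of largest falls. The copy of rgs9b, rgs9a, named after its values were seen, fell by 0.47. The cone transducin gnat2 and the inhibitory subunit pde6hb, the brightest of the list, had differences of -0.02 and 0.04 that did not pass (adjusted p = 0.692 and 0.525). Such bright genes had little room above them on the arrays.

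Genes of the outer segment, the membrane stack that holds the opsins, went both ways. Of 20 tested, 10 rose and 5 fell. The largest fall was that of impg1b, a proteoglycan of the matrix around photoreceptors, at -0.82. The disc rim genes rom1a, prph2la and rom1b rose by 1.23, 1.11 and 1.1, while prph2a and prph2b, copies of a disc rim gene that were bright at both ages, fell by 0.31 and 0.14, the second a call that 5 alternatives ended. The falls of this list were 3 rather than 5 without the first or the second array at 7 dpf or the third at 28 dpf. Of 25 photoreceptor transcription factors, 4 rose and 10 fell. The rod factor nr2e3 and the photoreceptor gene samd11 both rose by 0.74. The nuclear receptors nr2f1b, rxrgb and nr2f6b and the factor tbx2a fell by 0.82, 0.66, 0.50 and 0.48.

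The pigment genes fell. Of 18 melanin genes tested, 12 fell (against 22.1% of all genes) and 1 rose, with a median of -0.30. Tyrosinase, tyr, the first enzyme of melanin synthesis, measured 8.16, 8.39 and 8.23 at 28 dpf, against 9.68, 9.63 and 9.402 at 7 dpf, a difference of -1.31 ± 0.09 (SE; adjusted p = 1.04e-08). The melanosome exchanger slc24a5 measured 7.65, 7.87 and 7.65 at 28 dpf, against 9.29, 9.11 and 8.91 at 7 dpf, and the melanocortin receptor mc1r measured 5.03, 5.22 and 4.89 at 28 dpf, against 6.53, 6.5 and 6.33 at 7 dpf. No array at 28 dpf reached the level of any array at 7 dpf in these genes, and slc24a5, mc1r and tspan36 fell by 1.38, 1.40 and 1.29. The exception was pmelb, a melanosome matrix gene, which rose by 0.66, while its copy pmela fell by 0.22, a call lost without any of 3 single arrays. Of the 11 genes of iridophore and pteridine pigment, 6 fell and 1 rose, among them gch2 (-0.91) and pnp4a (-0.63).

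The visual cycle, which returns retinal to the opsins through the pigment epithelium and Muller glia, had no single direction. Of 21 genes tested, 6 rose and 6 fell (28.6% each, against 20.9% and 22.1% of all genes). The median of 0.03 turned to -0.05 with a stricter filter on dim genes and to -0.01 with centred arrays. The pigment epithelium's isomerase rpe65a measured 10.896, 10.79 and 10.52 at 28 dpf, against 11.58, 11.46 and 11.37 at 7 dpf, with no overlap and a difference of -0.74 ± 0.10 (SE; adjusted p = 2.17e-05). The retinol dehydrogenase rdh5 fell by 1.25. The retinal-binding gene rlbp1b and the matrix gene rbp3 rose by 0.54 and 0.31, as did dhrs3b and dhrs3a (0.66 and 0.46), which reduce retinal. Copy rlbp1a had a difference of 0.04 (adjusted p = 0.704).

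Inner retinal lists had small medians below 0, and few of their members moved 2-fold. Bipolar, horizontal, amacrine and ganglion cell genes had medians of -0.10, -0.085, -0.14 and -0.16, beside -0.02 over all genes. Of 24 bipolar genes 3 rose and 8 fell, of 22 amacrine genes 3 rose and 9 fell, and of 25 ganglion cell genes 4 rose and 11 fell. The glutamate receptor of ON bipolar cells, grm6b, measured 7.85, 7.89 and 7.91 at 28 dpf, against 8.72, 8.69 and 8.83 at 7 dpf. It fell with the genes of its signalling complex, gpr179 and nyx (-0.86, -0.70 and -0.55). Against this, cabp5a, a calcium-binding gene of bipolar cells, measured 11.14, 10.84 and 11.03 at 28 dpf, against 9.28, 9.33 and 9.26 at 7 dpf and rose by 1.71, or 3.28-fold. Its arrays at 28 dpf all lay above those at 7 dpf.

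Single markers of the other inner cells moved by less than 2-fold. Among amacrine genes the calretinins calb2a and calb2b and the acetylcholine genes slc18a3a and chata fell (-0.82, -0.58, -0.66 and -0.40). The glycine transporter slc6a5 rose by 0.82. Of the ganglion cell factors, isl2b and pou4f2 fell by 0.55 and 0.48, while the filament gene inaa and the surface gene thy1 rose by 0.70 and 0.62. In horizontal cells 4 of 15 genes fell (26.7%, near the 22.1% of all genes), among them onecut1 (-0.58). The connexin gja9a rose by 0.69. The count of 4 was 2 without the second array at 7 dpf or without the first or the second array at 28 dpf.

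Genes for inhibitory receptors fell in part. Of 26 GABA and glycine receptor subunits tested, 14 fell (against 22.1% of all genes) and 2 rose, and the retinal rho subunits gabrr2a and gabrr1 fell by 0.70 and 0.65. Of 35 glutamate receptor genes 13 fell and 5 rose, with grm3 and the NMDA subunit grin2bb at -0.92 and -0.63. The NMDA receptor copies grin2ca and grin2cb went apart, at 0.67 and -0.67. The synapse list as a whole had 7 rises and 9 falls among 40, close to the share of all genes, and 3 of its rises were at least 2-fold. The complexin cplx4b measured 10.29, 10.23 and 9.998 at 28 dpf, against 6.12, 6.08 and 6.15 at 7 dpf, a difference of 4.06 ± 0.19 (SE; adjusted p = 1.66e-10) or 16.7-fold. Its relative cplx4c and cabp4, which tunes the calcium channel of photoreceptor terminals, rose by 1.24 and 1.19. The vesicle sensor syt5b fell by 1.12 and its copy syt5a rose by 0.51.

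Muller glia, which span the retina and clear transmitter, also went both ways, with 7 rises and 7 falls among 23 genes. Each was 30.4% of the list, against 20.9% and 22.1% of all genes. The filament gene gfap and the carbonic anhydrases cahz and ca2 rose by 0.99, 0.99 and 0.98. The list of erythrocyte genes also holds cahz, so its rise is not particular to Muller glia. The GABA transporter slc6a13 and the glutamine synthetase copy glulb fell by 1.31 and 0.81, while the bright copy glula had a difference of -0.02 (adjusted p = 0.769). Among channel genes, 9 of 34 potassium channels rose and 9 fell (26.5% each, near the shares of all genes). The photoreceptor modulator kcnv2a and kcnq2a rose by 1.16 and 1.24, and kcnh6b fell by 1.04. Of 50 sodium and calcium channel genes 12 rose and 12 fell (24.0% each, near the shares of all genes). Several of the rises were of muscle subunits (scn4ba, scn4ab and cacna1sa, at 0.97, 0.75 and 0.61). Skeletal muscle genes also rose, and their part in these rises was not tested.

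Proliferation genes fell almost as a whole. Of 64 cell cycle and replication genes tested, 57 fell (89.1%, against 22.1% of all genes) and none rose. For 61 of them all arrays at 28 dpf lay below all arrays at 7 dpf (against 29.2% of all genes). The sizes were modest, with a median of -0.51 and no member past 2-fold. The replication clamp pcna measured 10.57, 10.58 and 10.601 at 28 dpf, against 11.28, 11.21 and 11.02 at 7 dpf, a difference of -0.59 ± 0.08 (SE; adjusted p = 1.57e-05). The cyclin ccnd1 measured 9.65, 9.503 and 9.47 at 28 dpf, against 10.47, 10.39 and 10.25 at 7 dpf, and the replication factors cdc6 and mcm4 and the spindle genes kif11 and plk1 fell by 0.82, 0.81, 0.82 and 0.80. Retinal progenitor genes followed: of 42, 23 fell and 3 rose, among them the Notch ligand dla and receptor notch1a (-0.61 each) and the eye field factor rx1 (-0.56). The largest rise of that list was fabp4a, a fatty acid binding gene that other tissues also use, at 1.34.

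Immature neuron genes did not move as a group. Of 27 tested, 10 rose (37.0%) and 5 fell (18.5%), against 20.9% and 22.1% of all genes. The growth genes stmn1a and sox11b fell by 0.88 and 0.51, while the thymosins tmsb2 and tmsb rose by 1.33 and 0.75. Of 27 genes of insulin-like growth factors, growth hormone and embryonic growth factors 6 rose and 12 fell, 3 of the falls at least 2-fold, with a median of -0.11. The RNA-binding gene igf2bp1 measured 7.71, 7.75 and 7.68 at 28 dpf, against 9.88, 9.901 and 9.79 at 7 dpf, a difference of -2.15 ± 0.06 (SE; adjusted p = 1.67e-13), and the chromatin gene hmga2 measured 7.82, 7.72 and 7.78 at 28 dpf, against 9.56, 9.69 and 9.52 at 7 dpf. Neither overlapped between the ages, which was a condition for the list of largest falls. The relatives igf2bp3, igf2bp2b and igf2bp2a fell by 1.27, 0.61 and 0.40. Other members differed in direction: igf2a, igfbp2b, igfbp5b and igf1 rose by 1.43, 1.09, 0.93 and 0.87, while igfbp1a and the insulin receptor insrb fell by 0.95 and 0.49.

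Genes of the ribosome fell. Of 53 ribosome biogenesis genes, 44 fell (83.0%, against 22.1% of all genes) and 1 rose (median -0.40), with nop10, imp4 and the nucleolar genes npm1a and fbl at -0.89, -0.69, -0.60 and -0.46. Of 67 cytosolic ribosomal protein genes 41 fell (61.2%) and 1 rose (median -0.22). The rise was rps8b (0.60), and rps20 fell by 0.66. Of 61 mitochondrial ribosomal protein genes 22 fell (36.1%) and 1 rose. Translation factors, the spliceosome and the proteasome had 28 falls of 71 (39.4%), 27 of 78 (34.6%) and 14 of 39 (35.9%) beside 11, 4 and 0 rises, none of them 2-fold. Of 20 aminoacyl tRNA synthetases, which charge tRNAs with amino acids, 4 fell (20.0%), 1 rose and 15 did neither. Without the third array at 28 dpf, 17 rather than 27 spliceosome genes fell.

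**Figure D3:**
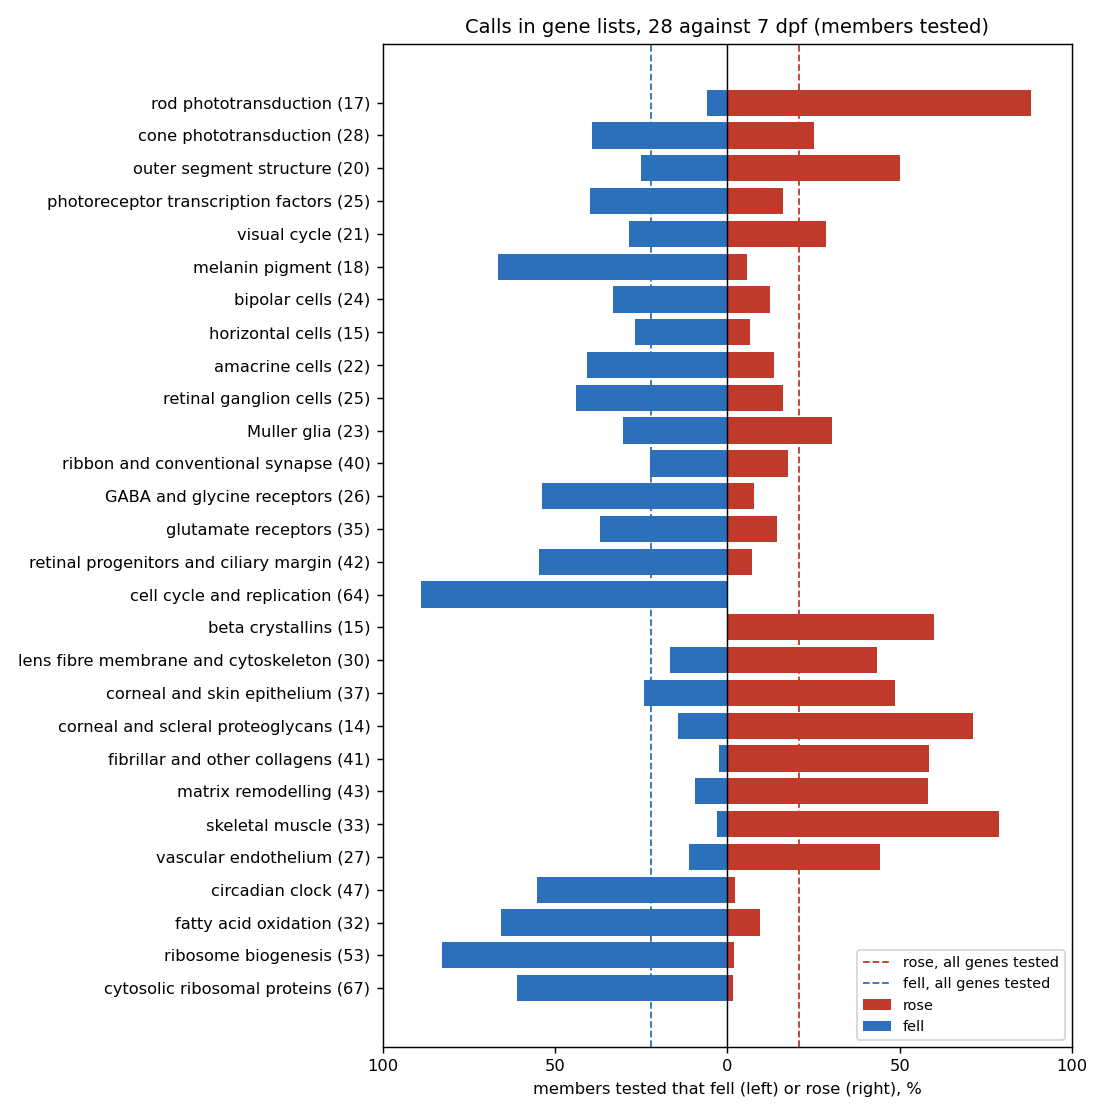
Share of the tested members of each gene list that rose (right, red) or fell (left, blue) at 28 against 7 dpf in heterozygous eyes, with the number of members tested in parentheses. The dashed lines mark the shares among all 14002 genes, 20.9% that rose and 22.1% that fell. Rod, matrix, collagen and muscle lists reach far to the right, and the cell cycle, ribosome biogenesis, melanin and fatty acid oxidation lists to the left.

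Among the crystallins, the gamma M family went both ways, while the alpha, beta and gamma S and N families had rises and no falls. The family of gamma M crystallins, densely packing proteins of fish lenses, had 26 genes on the array. Of the 18 tested, 10 rose (55.6%) and 8 fell (44.4%), against 20.9% and 22.1% of all genes, so none failed the test. Among them, 7 of the rises and 6 of the falls were past 2-fold. The gene crygm6 measured 11.14, 11.24 and 11.14 at 28 dpf, against 4.53, 4.59 and 4.47 at 7 dpf, a difference of 6.64 ± 0.15 (SE; adjusted p = 8.94e-15). Likewise crygm2a measured 12.35, 12.27 and 12.26 at 28 dpf, against 6.5, 6.67 and 6.83 at 7 dpf and crygm2e 9.49, 9.26 and 9.36 at 28 dpf, against 5.23, 5.53 and 5.12 at 7 dpf, with differences of 5.63 and 4.07. The 3 genes had no overlap between the ages, which was a condition for the list of largest rises.

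The crygm2d genes went the other way. All 7 that were tested fell. Among the heterozygous arrays, crygm2d17, crygm2d16 and crygm2d6 passed the filter only through those at 7 dpf, where they were high. The count of 7 therefore depends in part on the filter. The gene crygm2d17 measured 5.66, 6.01 and 5.98 at 28 dpf, against 10.404, 10.83 and 10.77 at 7 dpf, a difference of -4.79 ± 0.13 (SE; adjusted p = 9.88e-14) or 27.6-fold lower. Its relative crygm2d16 measured 3.497, 3.54 and 3.15 at 28 dpf, against 7.45, 8.06 and 7.91 at 7 dpf, and crygm2d6 measured 3.74, 3.84 and 4.001 at 28 dpf, against 7.27, 8.4 and 7.21 at 7 dpf, where the second array at 7 dpf stood above the other two. Smaller falls were measured for crygm2d15, crygm2d11, crygm2d1 and crygm2d13, at -2.16, -1.04, -1.02 and -0.46. The 8 gamma M genes too dim at both ages to be tested were all of the crygm2d series. In 7 of them every array at 28 dpf lay below every array at 7 dpf, against 29.2% of the genes tested. Such low levels lie near background, so this order does not by itself show that these copies fell. With no filter, 10 gamma M genes rose and 15 fell, and the median turned from 0.34 to -0.43. These genes are tandem copies of near-identical sequence, and a probe may take up signal from several of them, so the values of single copies are uncertain.

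Other crystallins rose or kept their level. Of the 15 genes on the beta crystallin list 9 rose (60.0%) and none fell, against 20.9% and 22.1% of all genes. The list was matched by symbol. It takes in crybg1a, which rose by 0.39, and crybg1b and crybg2, which did not pass. Their symbols alone do not make them beta crystallins of the lens. The gene crybb2 measured 10.999, 10.99 and 11.07 at 28 dpf, against 5.98, 6.26 and 6.32 at 7 dpf, and crybb3 measured 11.13, 11.11 and 11.12 at 28 dpf, against 7.14, 7.11 and 7.204 at 7 dpf, differences of 4.83 and 3.97. Next came cryba1a, crybb1l3 and cryba1l2, which rose by 3.32, 2.14 and 1.52. Against these, cryba4, cryba2a and crybb1 lay between 12.48 and 12.64 on every heterozygous array, and their differences of 0.03, 0.02 and 0.01 did not pass. The arrays reached 13.2 at most, so such bright genes had little room above them.

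The alpha crystallins, which are also chaperones, all rose. Here cryaba measured 9.89, 10.03 and 9.83 at 28 dpf, against 5.77, 5.996 and 5.58 at 7 dpf, and cryabb measured 9.92, 9.76 and 10.23 at 28 dpf, against 5.75, 5.92 and 5.47 at 7 dpf, differences of 4.14 and 4.25. The lens alpha A gene cryaa measured 11.53, 11.62 and 11.77 at 28 dpf, against 9.97, 10.53 and 10.6 at 7 dpf. It rose by 1.28, with the first array at 7 dpf lower than the others. Which tissue the rises of cryaba and cryabb came from was not tested, and 26 of 33 skeletal muscle genes rose in the same pools. In the gamma S and N families, crygs1 measured 11.41, 11.35 and 11.82 at 28 dpf, against 5.84, 5.93 and 5.67 at 7 dpf and rose by 5.71. The genes crygn1 and crygs4 rose by 2.56 and 1.68, while crygn2 was bright throughout and its difference of 0.05 did not pass (adjusted p = 0.411).

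**Figure D4:**
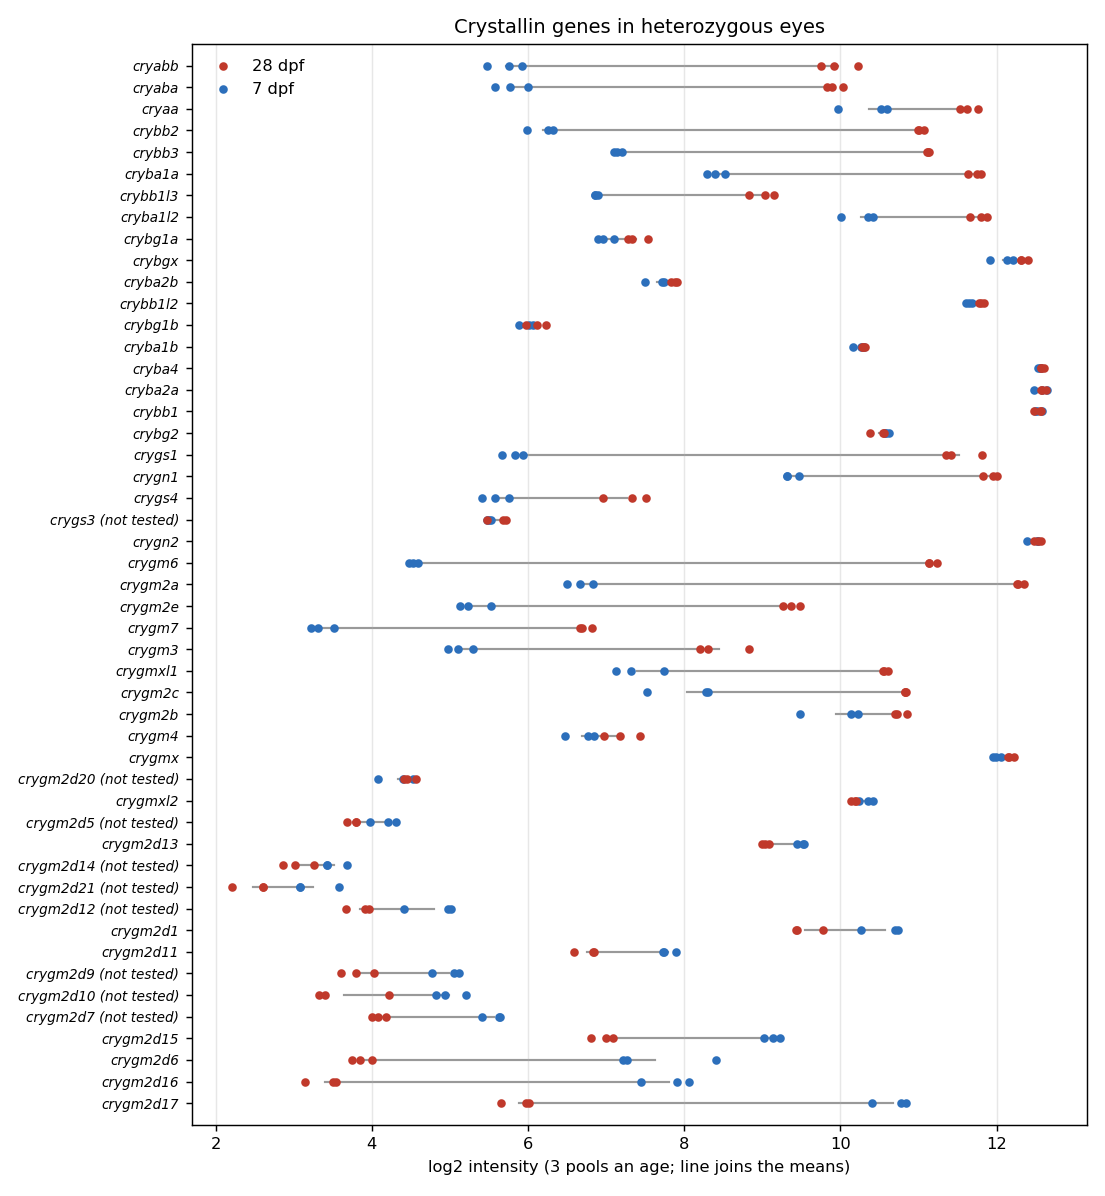
Log2 intensity of every crystallin gene on the array in the 3 pools at 28 dpf (red) and the 3 at 7 dpf (blue) of heterozygous eyes, with a line joining the means, grouped by alpha, beta, gamma S and N, and gamma M families. Genes marked as not tested were too dim. The crygm2d genes at the bottom lie to the left at 28 dpf, while crygm6, crygm2a and crybb2 lie far to the right.

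Among other lens genes, 13 of 30 rose (43.3%) and 5 fell (16.7%), against 20.9% and 22.1% of all genes. The fibre membrane gene lim2.2 measured 9.69, 9.62 and 9.98 at 28 dpf, against 7.31, 7.45 and 7.45 at 7 dpf, a difference of 2.36 ± 0.13 (SE; adjusted p = 1e-09), with no overlap. The lens genes lenep and grifin rose by 1.58 and 1.53, and the small heat shock gene hspb1 by 0.99. The water channel mipa and the beaded filament genes bfsp1 and bfsp2, which were bright at both ages, rose by 0.27, 0.33 and 0.29. The lens connexin-like gene gje1a fell by 0.76.

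Genes of the extracellular matrix rose in the whole eye. Of 14 corneal and scleral proteoglycan genes tested, 10 rose (71.4%, against 20.9% of all genes), 7 of them at least 2-fold. The list had 2 falls and a median of 0.89. Decorin, dcn, which organizes collagen fibrils, measured 10.36, 10.56 and 10.47 at 28 dpf, against 9.02, 8.76 and 8.55 at 7 dpf, a difference of 1.69 ± 0.10 (SE; adjusted p = 1.94e-09). Its relatives ogna, podn and aspn rose by 2.06, 1.94 and 1.69. Lumican, lum, of the cornea measured 7.87, 8.37 and 8.03 at 28 dpf, against 6.85, 6.598 and 6.52 at 7 dpf and rose by 1.43, while the corneal gene kera was bright at both ages and rose by 0.30. The falls were fmoda (-0.89) and nyx (-0.55), which in the retina belongs to bipolar cells.

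Of 41 collagen genes 24 rose (58.5%, against 20.9% of all genes) and 1 fell, with a median of 0.38. Skeletal muscle genes rose beside the matrix genes (26 of 33, median 1.15), and their part in these rises was not tested. The type I chain col1a1a measured 10.78, 10.85 and 10.73 at 28 dpf, against 9.55, 9.34 and 9.101 at 7 dpf, a difference of 1.46 ± 0.10 (SE; adjusted p = 8.74e-09), and col1a2 rose by 1.31. The type VI chains col6a2, col6a1 and col6a3 rose by 1.96, 1.74 and 1.19. The cartilage and bone chain col10a1a measured 8.53, 8.82 and 7.44 at 28 dpf, against 5.83, 6.95 and 5.11 at 7 dpf, a difference of 2.3 ± 0.38 (SE; adjusted p = 0.000166), and its arrays spread widely within each age. Among 29 cartilage and ossicle genes 13 rose and 2 fell, with ucmaa, matn1, hapln1a and epyc at 2.16, 1.36, 1.18 and 1.12 and matn4 at -1.37. Of 43 matrix remodelling genes 25 rose (58.1%), among them the fibronectin fn1b and the protease mmp2 (1.68 and 1.32), and 4 fell (9.3%). Leaving out single arrays moved those falls between 1 and 7.

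Keratin genes of the corneal and skin epithelium list went both ways in the pools of whole eyes. Of 37 corneal and skin epithelium genes 18 rose (48.6%) and 9 fell (24.3%), against 20.9% and 22.1% of all genes. The keratin krt94 measured 8.44, 8.39 and 8.45 at 28 dpf, against 7.26, 7.08 and 6.96 at 7 dpf, with no overlap, and the plakophilin pkp1a rose by 1.15. The keratin-like cyt1l measured 7.79, 8.37 and 8.31 at 28 dpf, against 10.39, 10.07 and 9.77 at 7 dpf, a difference of -1.92 ± 0.14 (SE; adjusted p = 2.87e-08), and anxa1c fell by 1.39. The bright surface keratin krt4 fell by 0.48, while krt5 rose by 0.42.

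Skeletal muscle genes were higher at 28 dpf. Of 33 tested of 50 on the array, 26 rose (78.8%, against 20.9% of all genes), 17 of them at least 2-fold. The list had 1 fall and a median of 1.15. The fast myosin light chain mylpfa measured 8.24, 8.26 and 8.38 at 28 dpf, against 6.61, 6.098 and 5.38 at 7 dpf, a difference of 2.27 ± 0.30 (SE; adjusted p = 1.98e-05), and myl1 rose by 2.27 as well. Of the pools at 7 dpf, replicate 3 was the lowest in mylpfa. The list's summed level ran from 13.36 to 13.46 at 28 dpf and from 12.69 to 12.89 at 7 dpf (log2). Without that pool the median was 0.99, and 24 genes rose. The exception was the myoglobin gene mb, which fell by 0.98.

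**Figure D5:**
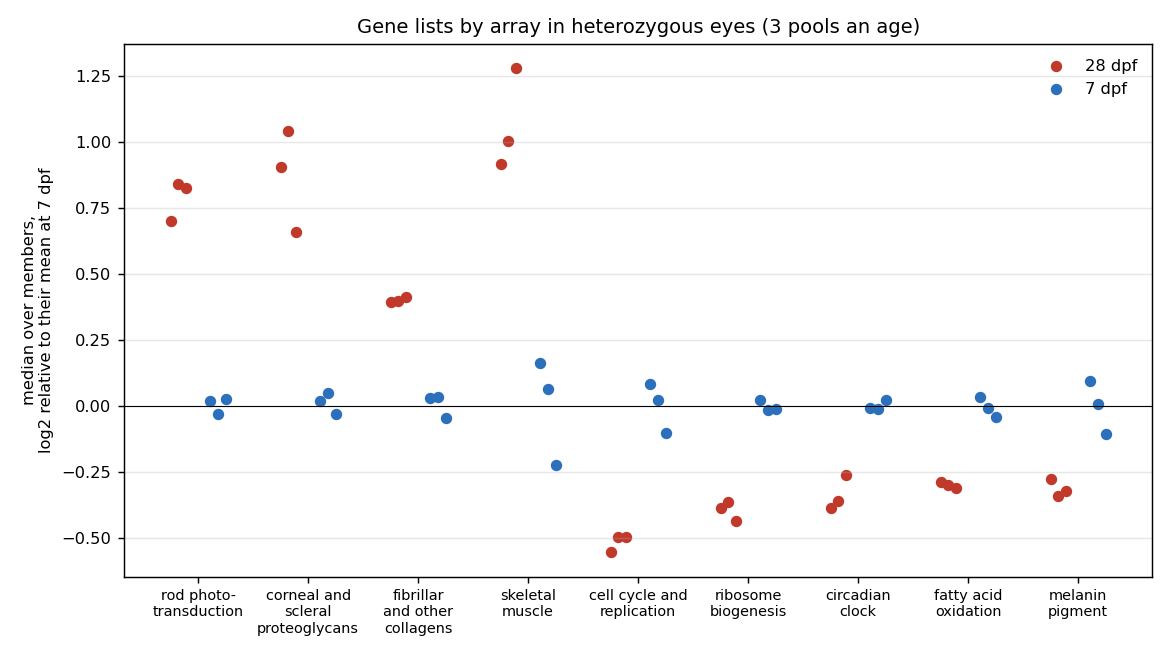
Median over the tested members of 9 gene lists on each array of heterozygous eyes, as log2 relative to each member's mean at 7 dpf, with 28 dpf in red and 7 dpf in blue. The ages do not overlap in any of the 9 lists shown, which were picked from the 68. They do overlap in others, such as the visual cycle list. The pools at 7 dpf differ most in the skeletal muscle list, and those at 28 dpf in the corneal and scleral proteoglycan list.

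Blood and vessel genes differed by kind. The embryonic alpha globins hbae1.1 and hbae3 fell. The gene hbae1.1 measured 6.86, 6.65 and 6.501 at 28 dpf, against 10.36, 10.93 and 10.34 at 7 dpf, a difference of -3.87 ± 0.16 (SE; adjusted p = 4.88e-11), and hbae3 measured 5.99, 6.31 and 6.07 at 28 dpf, against 10.01, 10.28 and 9.84 at 7 dpf. The embryonic beta globin hbbe2 fell by 0.72. The other 4 globins on the array, hbaa2 and hbba2 of adult type among them, were too dim to be tested. Other erythrocyte genes showed no common direction, with 4 rises (22.2%) and 5 falls (27.8%) among 18, against 20.9% and 22.1% of all genes. The largest rise was that of cahz (0.99), which the Muller glia list also holds. The erythroid haem synthesis gene alas2 rose by 0.80, highest in the first pool at 28 dpf, while fech and tspo fell by 1.03 and 1.19. Of 27 endothelial genes 12 rose (44.4%) and 3 fell (11.1%), against 20.9% and 22.1% of all genes. The receptors kdrl, tie1 and flt4 stood at 0.92, 0.88 and 0.77 and the junction gene cdh5 at 0.40.

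Immune genes were mostly dim. The invariant chain cd74a, which guides antigen presentation by MHC class II, measured 9.64, 9.45 and 9.18 at 28 dpf, against 5.91, 5.92 and 6.42 at 7 dpf, a difference of 3.34 ± 0.15 (SE; adjusted p = 8.21e-11). Its arrays did not overlap between the ages. The MHC light chains b2m and b2ml and the peptide transporter tap1 rose by 0.98, 0.71 and 0.63. Of 35 macrophage genes 19 were tested, and 9 rose (47.4%) and 3 fell (15.8%), against 20.9% and 22.1% of all genes. The list's summed level ran from 12.32 to 12.39 at 28 dpf and from 11.92 to 12.02 at 7 dpf (log2). The stricter filter left 3 rises and 1 fall and turned the median from 0.27 to -0.05. The macrophage gene mpeg1.1 measured 6.29, 6.39 and 5.93 at 28 dpf, against 5.85, 5.71 and 6.05 at 7 dpf, which did not pass, and the lymphocyte genes lck and cd79a were too dim to be tested. Of 12 myelin genes 7 rose (58.3%) and none fell. Myelin basic protein, mbpa, measured 7.75, 8.28 and 7.39 at 28 dpf, against 5.93, 5.94 and 6.099 at 7 dpf, a difference of 1.82 ± 0.15 (SE; adjusted p = 1.11e-07), while its copy mbpb was at -0.12 (adjusted p = 0.191).

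Clock genes were lower at 28 dpf. Of 47 circadian genes tested 26 fell (55.3%, against 22.1% of all genes), 7 of them at least 2-fold. The list had 1 rise and a median of -0.32. The repressor nr1d1 measured 7.48, 7.44 and 6.57 at 28 dpf, against 8.98, 9.04 and 9.003 at 7 dpf, a difference of -1.85 ± 0.26 (SE; adjusted p = 3e-05). The photolyase relative cry-dash measured 5.95, 5.66 and 5.73 at 28 dpf, against 7.81, 7.88 and 7.86 at 7 dpf. Output factor tefa, the light-responsive cry5 and the period gene per1b fell by 1.32, 1.15 and 1.22. The arrays of nr1d1 and cry-dash did not overlap between the ages, which was a condition for the list of largest falls. Many clock transcripts cycle over the day, and no source used here gives the hour of sampling. Age and hour cannot be told apart. The median spread between pools in this list was 0.157 at 28 dpf and 0.055 at 7 dpf (SD, log2).

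Of 9 genes of melatonin synthesis 4 rose (44.4%) and 3 fell (33.3%), against 20.9% and 22.1% of all genes, with a median of 0.135. The rate-setting enzyme of the retina, aanat1, measured 9.58, 9.61 and 9.52 at 28 dpf, against 7.94, 7.88 and 8.05 at 7 dpf, a difference of 1.61 ± 0.10 (SE; adjusted p = 4.96e-09). The related aanat2 and the methyltransferase asmt2 rose by 0.66 and 0.43, while tph1b fell by 0.68. As for the clock genes, age and the hour of sampling cannot be told apart here. Among 16 genes of the thyroid hormone axis 5 rose and 5 fell (31.2% each). The receptor thraa and the thyroid-responsive klf9 fell by 0.88 and 0.76, and the deiodinases dio1 and dio2 rose by 0.67 and 0.33, while klf9 and dio2 lost the call in 4 and 5 alternative settings, most of them with 1 array left out. The rises of this list numbered 2 to 4 in 11 of 13 alternative settings.

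Genes of fatty acid oxidation fell, and those of lipid synthesis had more rises than falls. Of 32 fatty acid oxidation genes 21 fell (against 22.1% of all genes) and 3 rose (median -0.28). The carnitine transferase cpt1ab, which admits fatty acids to mitochondria, measured 6.91, 6.55 and 6.83 at 28 dpf, against 8.72, 8.67 and 8.73 at 7 dpf, a difference of -1.94 ± 0.10 (SE; adjusted p = 3.39e-10). The trifunctional subunit hadhaa and the receptor pparaa fell by 1.1 and 0.76. Of 30 genes of fatty acid synthesis 12 rose (40.0%, against 20.9% of all genes), 5 fell (16.7%) and 13 did neither. The desaturase fads2, needed for the long unsaturated lipids of photoreceptor membranes, measured 9.75, 9.89 and 9.51 at 28 dpf, against 8.21, 8.33 and 7.97 at 7 dpf, a difference of 1.54 ± 0.10 (SE; adjusted p = 6.13e-09), and scd and elovl5 rose by 1.52 and 0.91. Of 26 cholesterol synthesis genes 10 rose and 3 fell, with the late enzymes sc5d, sqlea and lss at 1.15, 0.91 and 0.86 and hmgcra at 0.03 (adjusted p = 0.75).

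Glycolysis genes went both ways. Of 45 tested 14 rose (31.1%) and 21 fell (46.7%), against 20.9% and 22.1% of all genes. The rises included the muscle isoforms aldoab and pfkmb (2.2 and 1.5), and 26 of 33 skeletal muscle genes rose beside them. Also raised were gapdh and pkmb (1.29 and 1.09). Without the members that the muscle list also holds, 13 of 43 rose and 21 fell. The muscle list holds aldoab but not pfkmb, so pfkmb is still among the 13, and this count is not free of muscle isoforms. The pyruvate dehydrogenase kinase pdk2a and the carrier slc16a6a fell by 1.17 and 0.95. The neural aldolase aldocb and gapdhs, bright at both ages, fell by 0.24 and 0.14. Respiratory chain genes had 8 rises (9.09%) and 20 falls (22.7%, near the 22.1% of all genes) among 88, with cox5b2 at 0.92 and sdha at -0.77. The citric acid cycle had 6 rises (17.1%) and 9 falls (25.7%) among 35, near the shares of all genes, with the pyruvate dehydrogenase subunit pdha1b at 1.40.

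Genes next to the product of mmachc moved modestly. Of 38 genes of cobalamin, folate and methionine metabolism 3 rose (7.89%) and 13 fell (34.2%), none past 2-fold. Among all genes 20.9% rose and 22.1% fell. The 3 rises of the list were the glycine methyltransferase gnmt, the folate enzyme aldh1l1 and the folate carrier slc46a1 (0.97, 0.89 and 0.53). The methionine adenosyltransferase subunit mat2ab, cth and ahcy fell by 0.61, 0.52 and 0.32. Among 37 DNA methylation and polycomb genes 8 rose (21.6%) and 13 fell (35.1%). The new-methylation enzymes dnmt3aa and dnmt3ab rose by 0.96 and 0.90, while dnmt3bb.2, the maintenance enzyme dnmt1 and the polycomb gene cbx7a fell by 1.01, 0.64 and 1.16. Of 43 antioxidant genes 15 rose (34.9%) and 7 fell (16.3%). Of 42 heat shock genes 10 rose (23.8%) and 18 fell (42.9%), with hspb6 at 1.49. Among 43 stress genes 11 rose (25.6%) and 13 fell (30.2%), with klf2a and atf5a at 1.26 and 0.94 and cdkn1a at -0.93.

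Whether the change with age differed by genotype was tested as an interaction, the age difference in heterozygous eyes minus that in mutant eyes. It passed for 6610 genes (47.2%), 4080 with a value above 0 (29.1%) and 2530 below 0 (18.1%). The balance depended on the scaling of the arrays. The median of named probe sets lay at 7.018 to 7.045 on the 3 mutant arrays at 28 dpf, and at 7.117 to 7.237 on the other 9. With each array centred on that median, 2493 interactions passed above 0 and 4561 below, so that 35.3% rather than 61.7% of those that passed lay above 0, and the median interaction over all genes was -0.10 rather than 0.065. Of the 382 genes that moved at least 2-fold in heterozygous eyes, 315 moved the same way and passed in mutant eyes, 25 had the opposite sign there and 261 had an interaction that passed. Those genes were chosen by the heterozygous change, which is part of the interaction, so these counts are a description.

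The leading cone and lens genes moved the same way in both genotypes. Some had nearly the same difference in heterozygous and mutant eyes: 6.14 and 6.03 for opn1mw3, 5.63 and 5.56 for crygm2a, and 4.83 and 4.71 for crybb2. Several others moved less in mutant eyes. The differences of opn1mw4 were 6.39 in heterozygous and 3.29 in mutant eyes, an interaction of 3.1 ± 0.22 (SE; adjusted p = 8.57e-08). For opn1lw1 they were 3.74 in heterozygous and 1.74 in mutant eyes, and for crygs1 5.71 in heterozygous and 2.94 in mutant eyes. The smaller opn1lw1 rise of the mutants began from a higher level. Mutant pools averaged 9.283 at 7 dpf, against 7.575 for heterozygous pools, and by 28 dpf the means were 11.024 (mutant) and 11.311 (heterozygous). The opn1mw4 means instead lay apart at 28 dpf, with 8.276 (mutant) and 11.325 (heterozygous). The crystallin crygm2d17 fell by 4.79 in heterozygous and by 1.55 in mutant eyes. Among the named genes, the globin hbae1.1 had the lowest interaction, at -3.32 ± 0.23 (SE; adjusted p = 8.57e-08), with -3.87 in heterozygous and -0.55 in mutant eyes. Some genes had opposite signs: col10a1a stood at 2.3 in heterozygous and -0.67 in mutant eyes, the photoreceptor ankyrin repeat gene ankrd33ab at -1.51 in heterozygous and 1.28 in mutant eyes, and lss at 0.86 in heterozygous and -1.57 in mutant eyes. The green opsin opn1mw1 went further in mutant eyes, with 1.06 in heterozygous and 1.73 in mutant eyes. The interactions of opn1mw3, crygm2a and crybb2 did not pass, and those of all other genes in this paragraph did.

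The same comparison was counted in gene groups. Over all genes tested, 29.1% had an interaction that passed above 0 and 18.1% had such an interaction below 0. Of 41 collagen genes 22 had an interaction above 0 and none below (17 and 2 with centred arrays), and their median age difference was 0.38 in heterozygous and 0.03 in mutant eyes. Of 26 cholesterol synthesis genes 15 lay above 0 and 2 below (14 and 3 with centred arrays), with medians of 0.07 in heterozygous and -0.50 in mutant eyes. Of 47 clock genes 8 lay above 0 and 24 below (7 and 27), with medians of -0.32 in heterozygous and -0.01 in mutant eyes. The hour of sampling is not given for either genotype, so for clock genes genotype, age and hour cannot be told apart. Of 64 cell cycle genes 28 lay above 0 and 2 below (20 and 3), with medians of -0.51 in heterozygous and -0.84 in mutant eyes. The 17 rod phototransduction genes had medians of 0.77 in heterozygous and 0.71 in mutant eyes, with 9 interactions above 0 and 1 below (6 and 3).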

How the data were processed

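The authors deposited log2 intensities, 1 value for each probe set, from Affymetrix Expression Console and RMA, per the submitters' processing notes (versions not stated). RMA corrects background, normalizes by quantiles and summarizes probes. The quantile step gives all arrays the same distribution before the probes are summarized, so a shift of all transcripts together cannot be seen. The summarized values still differed a little between arrays, with medians of 5.64 to 5.699 over all probe sets. Probe sets were named through the table of a zebrafish platform, although the labelling protocol speaks of an array type of human and mouse. No genome build is given in the sources used here.

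Of 75212 probe sets, 20806 had 1 symbol, 855 several and 53551 none, and 20323 of those with 1 symbol matched the RefSeq gene table of assembly GRCz12tu, used for names only. This gave 19260 genes, each by its brightest probe set (1365 had several). A gene was tested if it exceeded the 33rd percentile of its array's named probe sets on at least 3 of 12 arrays, which left 14002 genes. No pair of arrays was identical (0 pairs). Precision is limited by the number of arrays, and an age difference had a median SE of 0.081.

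The fit used limma 3.58.1 in R 4.3.3 (1 mean per group over all 12 arrays, eBayes with trend, 8 residual degrees of freedom) and adjusted over all genes (Benjamini-Hochberg). It was tested on simulated data. A gene rose or fell at an adjusted p under 0.05, and a 2-fold change is a difference of 1.

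The members and the 68 gene lists were chosen with earlier results of these data known. Of 2766 list entries 2502 matched a gene by symbol or synonym and 264 did not, and 4 wrong matches were taken off (mtnr1ba from the antioxidants, polr1g from the lymphocytes, hsc70 from muscle and tspan36 from the macrophages). By rule the text names the 15 largest rises and 15 largest falls with non-overlapping arrays, passing over clone names (2 and 6), the 10 largest interactions, and from each list its fully shown members or up to 6 called members and the 2 brightest. A few crystallins and rgs9a beyond these were named after their values were seen. Alternatives were another filter, centring, averaging of probe sets, no trend, a replicate block, heterozygous arrays alone, each array left out, all probe sets, and limma's treat.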

Additional observations from a re-analysis of the deposited data

Results flagged for a closer look

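The change with age differed between heterozygous and mutant eyes for 6610 genes by the test of the difference itself (limma, adjusted over all genes). The values that follow are interactions, the age difference in heterozygous eyes minus that in mutant eyes, on the log2 scale, for the 10 largest and for those of the 15 largest rises and 15 largest falls that passed. The genes of the second kind were chosen by the heterozygous change, which is part of the interaction.

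Among genes that rose in heterozygous eyes, the interaction was 3.1 for opn1mw4 and 1.99 for opn1lw1, both cone opsins. It was 2.77 for crygs1, 2.59 for crybb3, 1.62 for cryabb, 1.61 for cryaba and 0.83 for crygm6, all crystallins. It was 2.97 for col10a1a, 1.46 for gatd3l and 0.89 for jac9. For fsta, a follistatin, it was 2.71, with age differences of 0.42 in heterozygous and -2.29 in mutant eyes. In heterozygous eyes fsta averaged 6.176 at 28 dpf and 5.755 at 7 dpf, below the 33rd percentile at both ages. Its level in mutant eyes at 7 dpf averaged 8.223. The heterozygous rise of fsta therefore lies near background, and its size is inexact.

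Among genes that fell in heterozygous eyes, the interaction was -3.32 for hbae1.1 and -1.48 for hbae3, both embryonic globins. It was -3.24 for crygm2d17, -2.64 for crygm2d16, -1.75 for crygm2d6 and -1.17 for crygm2d15, gamma M crystallins that fell by less in mutant eyes. It was -2.80 for ankrd33ab, -1.94 for igf2bp1, -0.98 for hmga2, -1.80 for rdh20, -1.73 for cpt1ab, -1.60 for cyt1l, -1.22 for cry-dash and -0.86 for guca1g. The Rev-erb gene nr1d4b went the other way at 2.49, with age differences of -0.67 in heterozygous and -3.16 in mutant eyes. For the clock genes cry-dash and nr1d4b, genotype, age and the hour of sampling, which is not given, cannot be told apart.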

How the results depend on the processing

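No named gene that was called changed its direction under an alternative, while 12 of the 68 list medians changed sign in at least 1, the haemoglobins' from -3.87 to 0.05 with no filter. Against 2927 rises and 3094 falls, the filters, centring, averaged probe sets, the fit without trend and the heterozygous arrays alone gave 2313 to 3279 rises and 2620 to 3783 falls, with 212 to 305 and 98 to 134 past 2-fold. Centring moved the median difference over all genes from -0.02 to -0.05. All probe sets taken separately gave 4819 rises and 5568 falls, 539 and 279 of them past 2-fold, among 33957 tested. By limma's treat, which tests against a difference of 1, 109 genes rose and 37 fell. Leaving out 1 heterozygous array gave 2470 to 2599 rises and 2524 to 2787 falls, 261 to 283 and 110 to 130 past 2-fold. The interaction count ran from 5624 to 7054, and from 5935 to 6699 with each array left out. Same-numbered pools did not deviate together (correlations of -0.10, -0.01 and 0.05), and pools of different numbers ran from -0.095 to 0.108. The check gave no sign that the numbers pair the pools, which 3 pools an age cannot exclude. With the replicate block 2908 genes rose and 3098 fell, 265 and 117 of them past 2-fold, and 6594 interactions passed. Of 458 named genes called, 418 were called in every alternative in which they were tested and 40 lost the call in at least 1, among them dio2 and prph2b in 5, klf9 in 4, pmela and gapdhs in 3, bfsp2 in 2 and onecut1 in 1. Of the 68 list medians, centring moved 18, no filter 16 and the stricter filter 19 by more than the spread between pools. Low signal limits the folds of dim genes.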

Other observations

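In heterozygous eyes at 28 dpf most genes of axon guidance and cadherin adhesion did not pass the test. Of 88 axon guidance genes 26 rose, 10 fell and 52 did neither (against rises and falls of 20.9% and 22.1% of all genes), with the semaphorins sema3fa, sema4ab and sema3fb at 0.84, 0.84 and 0.78 and the ephrin efna5b at 0.52. Without the first or the second array at 7 dpf, or the second at 28 dpf, 6 rather than 10 fell. Of 62 cadherins and protocadherins 18 rose, 4 fell and 40 did neither, with pcdh2g3 and pcdh18a at 0.61 and 0.56 and pcdh20 at -0.88. Centred arrays gave 14 rises and 9 falls, the replicate block gave 7 falls, and leaving out the third array at 7 dpf gave 10 rises.

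Genes paired by symbol did not always move together. There were 1789 pairs of tested genes whose symbols differ only in a closing a or b. Both members rose in 151 pairs and fell in 134, and in 122 the members went opposite ways. Over all genes tested 20.9% rose and 22.1% fell, and the pair counts to expect from these shares were not worked out. Only symbols were compared, so some pairs may not be duplicates of the fish genome. In 820 pairs 1 member passed and in 562 neither did. In 6 pairs both members passed in opposite directions with differences of at least 0.5, and these were named after their values were seen. The water channel aqp3a rose by 0.75 while aqp3b fell by 1.28. The lipid transfer gene pitpnc1b rose by 0.72 while pitpnc1a fell by 0.93. The GABA transporter slc6a11a rose by 0.51 while slc6a11b fell by 0.75, and arhgap22a rose by 0.74 while arhgap22b fell by 0.54. The pairs grin2ca with grin2cb and syt5a with syt5b complete the set.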
